A study of Mus musculus with 14 samples.

Results

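Cd28, Ctla4 and Icos lie next to each other on mouse chromosome 1 and encode 3 related receptors of T cells. The histone marks H3K27ac and H3K27me3 were read across a window of 290 kb that holds all 3 genes, at 60770000 to 61060000 of the mm39 build, in regulatory T cells with and without Slc31a1. Every peak whose midpoint lay in the window was taken, which gave 238 of the 309136 peaks of 10 peak lists. Of these, 236 were H3K27ac peaks and 2 were H3K27me3 peaks. Cd28 was placed near 60785500 to 60812500, Ctla4 near 60948200 to 60955000 and Icos near 61017000 to 61039500, and the rest of the window was divided into the stretches before, between and after the genes. No annotation of mm39 was used, so exons, introns and untranslated regions are not given.

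CD28 delivers the costimulatory signal that a T cell needs together with its antigen receptor, by binding CD80 and CD86 on antigen-presenting cells. CTLA-4 binds the same ligands more tightly and restrains T cells. Regulatory T cells carry it constitutively and need it to suppress. ICOS, the inducible costimulator, binds ICOS ligand and is found on activated, follicular and effector regulatory T cells. H3K27ac is found at promoters and enhancers in use, whereas Polycomb complexes place H3K27me3 on silenced genes. Slc31a1 encodes the copper importer CTR1.

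The marks were mapped by CUT&Tag, in which an antibody directs a transposase to chromatin so that marked fragments are cut out and sequenced. Knockout cells came from chimeras that the labels write as Foxp3YFP-Slc31a1△;wt, and control cells came from chimeras written as Foxp3YFPcre;wt. Both labels name Foxp3YFP, but only the control label names Cre. In the Foxp3 YFP-Cre allele, Cre is driven from the Foxp3 locus, the gene of the factor that defines regulatory T cells. That the knockouts carry Cre as well is not written in their label. The Slc31a1 deletion is in the knockouts alone. Regulatory T cells were sorted by FACS and 140000 cells entered each sample; ages and numbers of animals are not given in the sources used here. H3K27ac had 3 knockout and 3 control libraries, and H3K27me3 had 2 knockout and 2 control libraries. The labels number the chimeras, and within a mark each library of a genotype came from a differently numbered chimera. Same-numbered libraries of a mark share the chimera number across the genotypes. Chimera 2 of each genotype gave a library of both marks. The labels do not tie each library to a separate animal, so p-values reflect only how far these samples differ, which may be technical.

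Peak lists hold the position and length of enriched stretches, not reads, and do not state sequencing depth. H3K27ac lists held between 21326 and 28289 peaks in knockouts and between 27986 and 32012 in controls. The H3K27me3 list of control 1 stood apart, with 7512 peaks and a lowest −log10 p of 2.02. Knockouts 1 and 2 had 36436 and 57728 peaks and control 2 had 43945, with lowest values between 9 and 9.02. The H3K27me3 list of knockout 1 differed from the others in another respect, given with the processing below. Only Ctla4, of the regulatory T cell markers, could be read here, because start sites of other genes in mm39 were not at hand. For the same reason the deletion of Slc31a1 was not checked. Within a sorted population, fewer cells with a mark and less of the mark per cell cannot be told apart.

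The promoter of Ctla4 is shown because its start carried one of the strongest H3K27ac peaks of the window in every H3K27ac library. The RefSeq sequence, GRCm38.p6 chr1:60908775-60909074, plus strand, runs from 250 bases before the gene start to 50 bases after it. Capitals mark matches to the motifs TATAAA and GGAAA, the second on the opposite strand. These positions are of another build and cannot be set beside the mm39 peaks.
Ctla4 promoter: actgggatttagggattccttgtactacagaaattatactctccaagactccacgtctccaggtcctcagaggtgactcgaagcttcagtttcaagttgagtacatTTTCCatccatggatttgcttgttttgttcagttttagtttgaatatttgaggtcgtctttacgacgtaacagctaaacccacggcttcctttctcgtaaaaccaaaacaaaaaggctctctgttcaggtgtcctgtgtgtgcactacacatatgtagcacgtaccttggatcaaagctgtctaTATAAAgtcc

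TATAAA stood at bases 291 to 296, which is after the annotated gene start, and was present in 13.6% of the 32851 promoters of this length. GGAAA, the core that NFAT and some other factors recognise, stood at bases 107 to 111 on the minus strand and was present in 61.3% of promoters. The other motifs searched, on both strands, were not in this window. They were TGACTCA, held by 5.2% of all promoters, then GTAAACA, held by 3.65%, then TGTGGT, held by 16.8%, then CCGGAAGT, held by 3.89%, and last GGGCGG, held by 35.7%. The promoter held 8 CG pairs and 42% G and C, where the medians over all promoters were 7 and 52.7%. Sequences of the other 2 promoters were not at hand.

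The whole window was heavily acetylated in both genotypes. H3K27ac peaks with their midpoint in it numbered 46, 31 and 36 in knockouts 1 to 3 and 42, 38 and 43 in controls 1 to 3. They covered 26.7%, 32.1% and 28.7% of the window in the knockouts and 28.2%, 32.7% and 32.9% in the controls, where H3K27ac peaks covered between 1.44% and 1.8% of the genome in knockouts and between 1.61% and 1.65% in controls. When the genome was tiled into windows of the same length, 23, 28 and 32 windows of 9037 to 9039 per list held more acetylated bases in knockouts 1 to 3, and 21, 15 and 15 did in controls 1 to 3. The window summed to 77.4, 93.1 and 83.3 kb under peaks in the knockouts and 81.7, 94.7 and 95.4 kb in the controls. Means were 84.6 ± 7.93 kb in knockouts and 90.6 ± 7.72 kb in controls (mean ± SD over 3 libraries each), a difference of -6.02 kb (two-sided exact permutation p = 0.3, where 0.1 is the smallest p that 3 against 3 libraries allow). The groups overlapped, and the difference was smaller than the spread within either group.

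**Figure D1:**
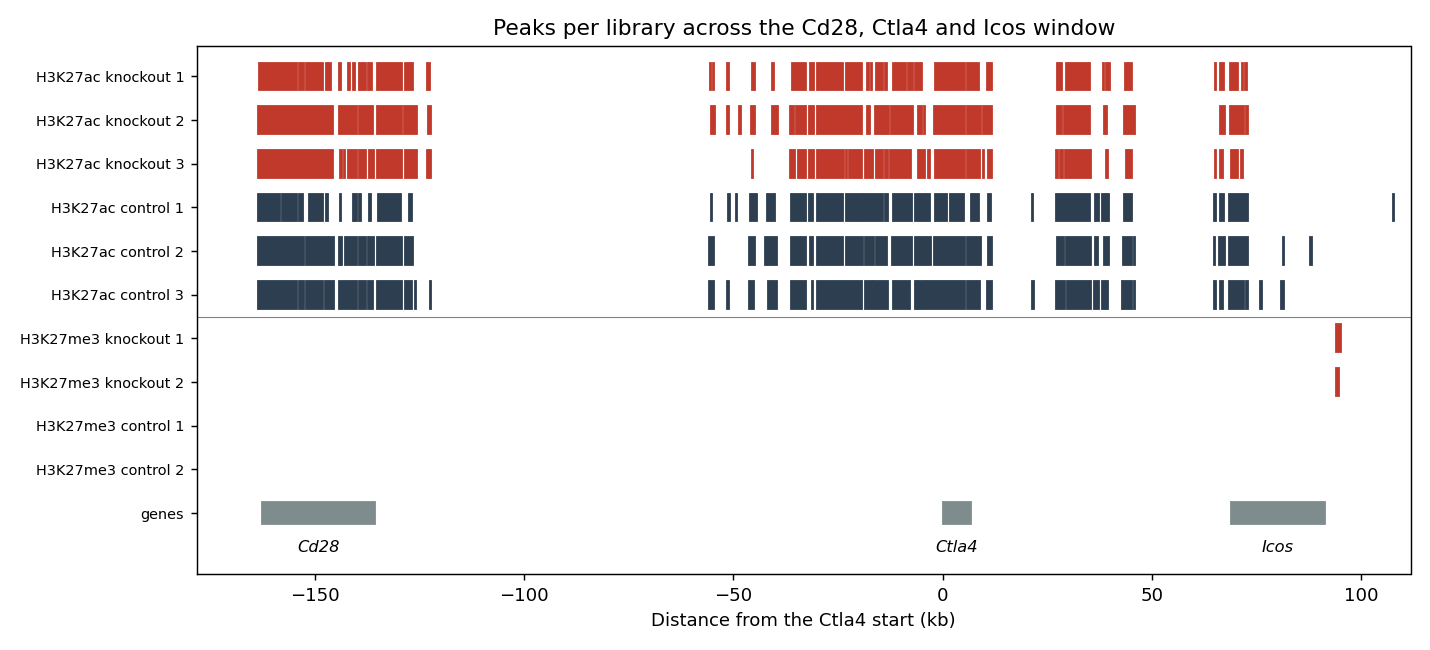
Peaks of each library across the window, with the distance from the start of Ctla4 in kb on the horizontal axis and 1 row per library, knockouts above controls for each mark. Filled blocks are peaks and grey blocks are the 3 genes. The larger H3K27ac islands recur in all 6 libraries, with a gap of 66.5 kb between Cd28 and Ctla4, and H3K27me3 has a peak only in the 2 knockout libraries, after Icos.

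The acetylated islands of the locus were largely shared. Merging overlapping peaks of the 6 lists gave 34 H3K27ac regions in the window, and 20 of them (58.8%) were shared by all 6 libraries, against 34.9% of the 37573 regions of the genome. Only 1 region was found in every control and absent from every knockout (2.94%; 2.66% over the genome), and 0 were found in every knockout and absent from every control (0.809% over the genome). Bases under an H3K27ac peak in at least 1 library came to 112 kb, and 59.7 kb of these (53.4%) were under a peak in all 6. The Jaccard index, the bases shared by 2 lists divided by the bases in either, averaged 0.776 among knockouts (0.75 to 0.804), 0.788 among controls (0.742 to 0.851) and 0.747 between the genotypes (0.673 to 0.795, 9 pairs). The ranges overlapped.

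**Figure D2:**
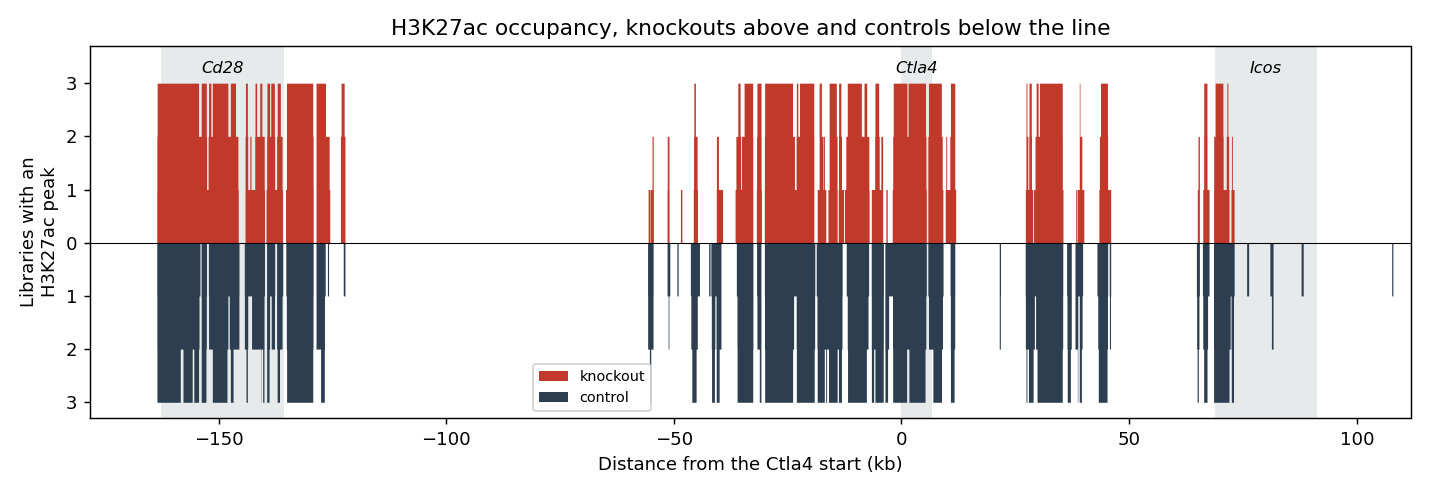
Number of H3K27ac libraries with a peak at each base of the window, by distance from the start of Ctla4 in kb. Knockouts (0 to 3 libraries) are drawn above the line and controls below it, and grey shading marks the genes. Upward and downward blocks mirror each other at most islands. The 3 weak islands farthest inside Icos have peaks in control 2, control 3 or both, and in no other library.

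Cd28 was acetylated over most of its length. Peaks covered 67%, 90.8% and 83.5% of the gene in knockouts 1 to 3 and 52.7%, 83.8% and 85.4% in controls 1 to 3. Peaks assigned to it summed to 18.9, 25.4 and 23.4 kb in knockouts and 15.1, 23.5 and 23.9 kb in controls. Library 1 of each genotype was the lowest of its group, and the groups overlapped. Means were 22.6 ± 3.34 kb in knockouts and 20.8 ± 5 kb in controls (mean ± SD over 3 libraries each, difference 1.73 kb, two-sided exact permutation p = 0.7). Without control 1 the difference was -1.16 kb, so the sign rests on that library.

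The peak over the Cd28 start was among the widest of each list. It was 9098, 17887 and 10925 bases wide in knockouts 1 to 3 and 5131, 9459 and 9284 bases in controls 1 to 3. All 6 widths were at or above percentile 96.8 of their own lists. It began between 60784629 and 60784718 in all libraries, before the stated start, and ran into the gene. The strongest summit of the surrounding region (60784629 to 60802695) was not at the start. It lay inside the gene, between 60797462 and 60797521 in all 6 libraries. At that region the highest −log10 p, the authors' measure of enrichment within a list, was 75.4, 186 and 111 in knockouts and 44, 127 and 150 in controls. The region held 15268, 17887 and 17463 bases under peaks in knockouts and 13038, 17279 and 16843 in controls, with overlapping groups.

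The acetylation continued past the end of Cd28 and then stopped. The region at 60812915 to 60818992 held 5781, 6078 and 5867 bases in knockouts and 5723, 5851 and 6000 in controls, with overlapping groups. Next to it, at 60819602 to 60822632, stood an island whose summit was placed within 39 bases (60821094 to 60821133) in all 6 libraries. Its −log10 p was 128, 165 and 97.7 in knockouts and 87.6, 141 and 131 in controls, and its length was 2093, 3031 and 2881 bases in knockouts and 805, 2029 and 2133 bases in controls. Only knockout 1 was below a control in length. The last island on this side, at 60824962 to 60825968, held 825, 863 and 1007 bases in knockouts and 0, 0 and 378 in controls. Its −log10 p was 22.7, 33.3 and 24.2 in knockouts, and 9.97 in control 3, the only control with a peak there. No library had an H3K27ac peak in the 66.5 kb that follow, from 60825969 to 60892434. In the gene order of GRCm38.p6, the genes between Cd28 and Ctla4 are the long non-coding RNA genes 2310016D23Rik, Gm38137 and Gm39650 and the pseudogenes Gm11609, Gm11581 and Rpl18-ps1, which were not placed in mm39.

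The far side of the stretch between Cd28 and Ctla4 carried a chain of islands leading up to the Ctla4 start. The strongest of the stretch, at 60918073 to 60929162, held 9970, 10874 and 10117 bases under peaks in knockouts and 10287, 10383 and 10954 in controls, with −log10 p of 134, 192 and 149 in knockouts and 118, 119 and 158 in controls. The groups overlapped in both measures. A second strong island, at 60935670 to 60941091, held 4218, 5048 and 4898 bases in knockouts and 4629, 4785 and 4187 in controls, and also overlapped.

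Among the other islands of this chain, some separated the genotypes in length and some did not. The island at 60916327 to 60917428 held 914, 982 and 1102 bases in knockouts and 943, 873 and 361 in controls, and that at 60911649 to 60915578 held 3278, 3526 and 3010 bases in knockouts and 3488, 3465 and 3639 in controls, so that both overlapped. Farther out, the island at 60901821 to 60903825, held 796, 846 and 397 bases in knockouts and 1680, 1534 and 1152 in controls. Its neighbour at 60906324 to 60908911 held 454, 1377 and 0 bases in knockouts and 1836, 1852 and 1658 in controls. Closer to Ctla4, the island at 60929466 to 60935476 held 3083, 3924 and 4114 bases in knockouts and 5423, 4898 and 5196 in controls, and that at 60941544 to 60944221 held 1743, 1208 and 1744 bases in knockouts and 2588, 2667 and 2375 in controls. Every knockout was below every control at each of the last 4 islands, which were chosen after their values were seen. Of the 20 regions present in every library, 3 had every knockout below every control (7.16% of 13106 such regions over the genome) and 1 had every knockout above (12% over the genome). That one lay just past Ctla4, at 60957805 to 60960100, with 1097, 1972 and 1463 bases in knockouts and 798, 981 and 1019 in controls.

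Over the whole stretch between Cd28 and Ctla4, peaks summed to 37.2, 39.2 and 35.4 kb in knockouts and 42, 40.6 and 39.6 kb in controls. The lowest control was above the highest knockout. These sums include the Ctla4 start peak of knockout 1 (2990 bases) and control 1 (3054 bases), whose midpoints lay in the stretch. In the other libraries that peak was counted in Ctla4. Means were 37.3 ± 1.89 kb in knockouts and 40.8 ± 1.17 kb in controls (mean ± SD over 3 libraries each, difference -3.48 kb, two-sided exact permutation p = 0.1, the smallest possible). When bases were divided at the borders of the stretch, peaks covered 28.1 ± 2% of it in knockouts and 31.1 ± 0.929% in controls, the groups overlapped, and the exact permutation p was 0.2 (n = 3 each).

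Ctla4 was acetylated over most of its length in both genotypes, least in control 1. Peaks covered 86.3%, 95% and 93.8% of the gene in knockouts 1 to 3 and 68.4%, 91.4% and 94.8% in controls 1 to 3, with means of 91.7 ± 4.74% in knockouts and 84.9 ± 14.4% in controls (mean ± SD over 3 libraries each, two-sided exact permutation p = 0.6). The peak over the start was 2990, 7471 and 7301 bases wide in knockouts and 3054, 7325 and 9102 in controls. Its −log10 p was 129, 206 and 126 in knockouts, at percentiles 93.9, 96.3 and 96.2 of their lists, and 123, 175 and 263 in controls, at percentiles 95.9, 98.5 and 99.2. By −log10 p it ranked 2, 3 and 3 among the H3K27ac peaks of the window in knockouts 1 to 3, and 1 in each of the controls, an order seen after the values and not tested. The fragments piled up at its summit, read back from its fold and −log10 p, numbered 274, 364 and 248 in knockouts and 333, 220 and 287 in controls. These groups overlapped. Its local background, read back in the same way, was 40.5, 41.3 and 33.1 fragments in knockouts and 64.7, 14.2 and 13.8 in controls. Summits lay within 84 bases of the stated start in all 6 libraries, at -8, -33 and -32 bases in knockouts and -8, 84 and 84 bases in controls. Peaks given to Ctla4 by their midpoint summed to 3.81, 7.47 and 7.3 kb in knockouts and 3.52, 7.33 and 9.1 kb in controls, with a difference of -0.455 kb (two-sided exact permutation p = 0.9, n = 3 each). In library 1 of each genotype the start peak ended soon after the gene start, so that its midpoint, and with it its whole length, fell into the stretch before the gene. Dividing bases at the border turned the difference to 0.464 kb.

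**Figure D3:**
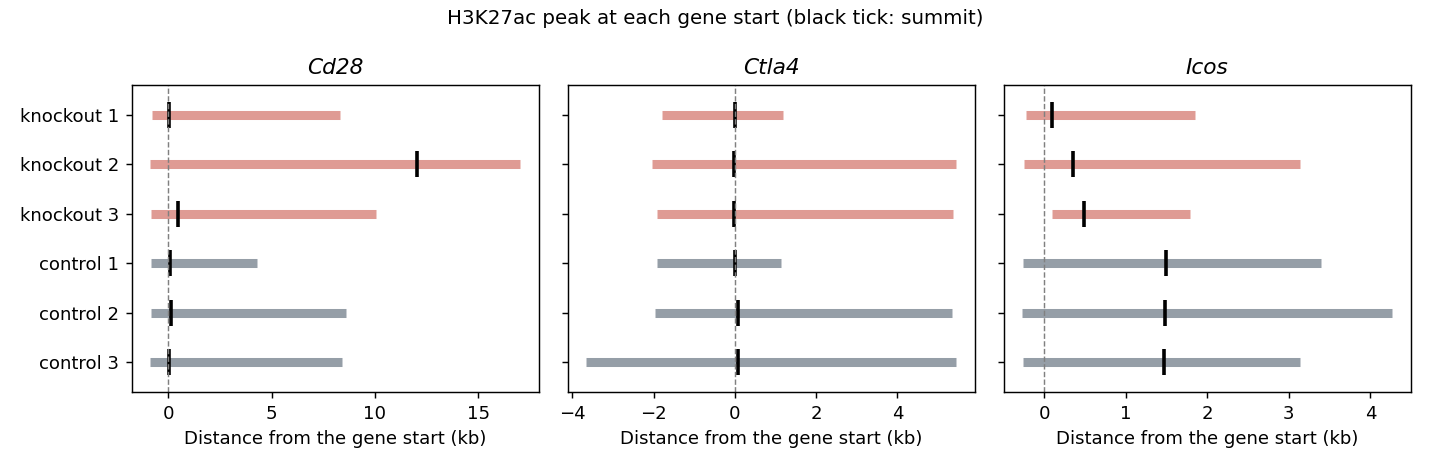
The H3K27ac peak at the start of each gene, with the distance from the gene start in kb on the horizontal axis and 1 row per library, knockouts above controls. Bars are peaks and black ticks are summits. Ctla4 summits sit on the start in all 6 libraries, and Icos summits lie at 89, 349 and 482 bases in knockouts and at 1490, 1484 and 1474 bases in controls.

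Between Ctla4 and Icos, most of the acetylated length lay in islands found in both genotypes. The strongest, at 60975369 to 60983666, held 6400, 7529 and 7343 bases under peaks in knockouts and 8145, 7532 and 7289 in controls, with −log10 p of 69.8, 108 and 52.7 in knockouts and 72.1, 115 and 99.8 in controls. The groups overlapped. Beside it stood the only region of the window with a peak in every control and no knockout, at 60984465 to 60985488. It held 880, 724 and 1017 bases in the controls, and its −log10 p of 15.5, 17.7 and 14.6 stood at percentiles 50.2, 56.6 and 45.3 of their lists. The long non-coding RNA gene Gm34649 and the pseudogene Gm11582 lie between Ctla4 and Icos in the gene order of GRCm38.p6. No library had a peak at 60960101 to 60969667 or at 60994157 to 61012971.

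Peaks of the stretch between Ctla4 and Icos summed to 14.8, 17.1 and 15.1 kb in knockouts and 16.8, 17.9 and 17.7 kb in controls. Means were 15.7 ± 1.25 kb in knockouts and 17.5 ± 0.61 kb in controls (mean ± SD over 3 libraries each, difference -1.81 kb, two-sided exact permutation p = 0.2). With bases divided at the borders, peaks covered 24 ± 2.06% of the stretch in knockouts and 27.6 ± 0.317% in controls, without overlap, at the smallest possible exact permutation p of 0.1 (n = 3 each).

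Icos was acetylated at its start and little elsewhere, and it was the gene at which the genotypes stood furthest apart for their spread. Peaks covered 11.3%, 16.5% and 9.08% of the gene in knockouts 1 to 3 and 17.2%, 22.6% and 21.2% in controls 1 to 3. They summed to 2.77, 3.97 and 2.04 kb in knockouts and 4.13, 5.35 and 5.04 kb in controls, and the highest knockout was below the lowest control. Means were 2.93 ± 0.973 kb in knockouts and 4.84 ± 0.632 kb in controls (mean ± SD over 3 libraries each, difference -1.92 kb, two-sided exact permutation p = 0.1, the smallest possible). Cd28 and Ctla4 overlapped between the genotypes, but the differences were not compared with each other by a test.

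The peak at the Icos start was 2080, 3382 and 1698 bases wide in knockouts and 3653, 4538 and 3390 bases in controls. In knockout 3 it began at 61017095, after the stated start, and it covered the start in the other 5 libraries. Its −log10 p did not follow its width, at 20.8, 57.2 and 40.4 in knockouts and 36.3, 30 and 34.5 in controls. The summit lay 89, 349 and 482 bases after the stated start in knockouts and 1490, 1484 and 1474 bases after it in controls. The closest summits of the genotypes were 992 bases apart, and within the controls the 3 summits lay between 61018474 and 61018490. Of the 13106 regions with a peak in every library, 8.58% had summits that did not overlap between the genotypes. In 0.366% they were 900 bases or more apart, a distance chosen after the Icos values were seen. Both shares count regions of every length, and regions shorter than 900 bases cannot reach that distance. The Icos region was 4538 bases long, and regions of like length were not counted separately. In the window, summits were also apart in the regions starting at 60808634, 60911649 and 60929466, by 84, 40 and 1 bases. At the Icos start peak, the fragments piled up at the summit, read back from the fold and −log10 p of the peak, numbered 60, 86 and 59 in knockouts and 91, 61 and 68 in controls. Farther inside Icos, weak peaks lay at 61024016 to 61024447 in control 3, at 61029118 to 61029806 in controls 2 and 3, and at 61035971 to 61036430 in control 2. No other library had a peak there, and these stood at percentiles 4.67 to 26.2 of −log10 p in their lists. Over the window, 7 of the 34 regions had a peak in 1 or 2 controls and no knockout (22.2% over the genome), and 1 had a peak in 1 or 2 knockouts and no control (13.1% over the genome).

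**Figure D4:**
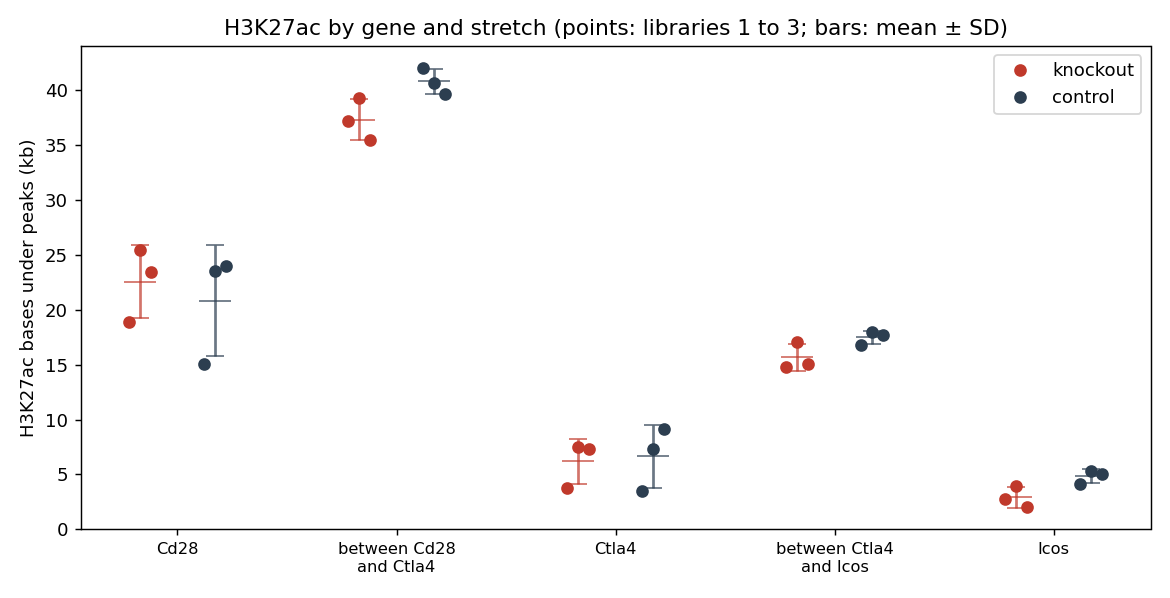
Kb under H3K27ac peaks in each gene and in each stretch between genes, knockouts left of controls. Points are libraries 1 to 3, and bars are the mean and SD of 3 libraries. With peaks assigned by midpoint, knockouts lie below controls without overlap between Cd28 and Ctla4 (37.3 against 40.8 kb) and in Icos (2.93 against 4.84 kb). The groups overlap elsewhere. Between Cd28 and Ctla4 they also overlap when bases are divided at the borders.

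The same data were tested in 10 kb bins with limma across the genome, on log2(bases under peaks + 100), with Benjamini-Hochberg adjustment over all bins. Of the 29 bins of the window, 18 had a peak in at least 3 H3K27ac libraries and were tested. None was called lower in knockouts at an adjusted p under 0.05 and none was called higher (0 of 18 each; 2.25% and 0.58% of 19295 bins over the genome). At an unadjusted limma p under 0.05, 5 bins were lower and 1 was higher in knockouts (10.9% and 5.99% over the genome). Every knockout was below every control in 6 of the 18 bins (12.4% over the genome) and above in 1 (9.64%). The median log2 change of the 18 bins was -0.23, against -0.05 over all bins. These bins are neighbours on 1 chromosome and are not independent.

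The bins below 0.05 without adjustment, chosen after their values were seen, sit at the islands described above. In the bin from 60820001, past Cd28, bases under peaks were 2524, 3495 and 3494 in knockouts and 805, 1635 and 2117 in controls (log2 change 1.07, SE 0.354, limma adjusted p = 0.183, 0.0702 to 0.438 over the alternatives). In the bin from 60900001, before Ctla4, they were 1250, 2223 and 397 in knockouts and 3516, 3680 and 2810 in controls (log2 change -1.58, SE 0.448, limma adjusted p = 0.127, 0.0542 to 0.326 over the alternatives). Both bins had groups without overlap.

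In the bin from 60940001, which ends inside Ctla4, bases were 6178, 6057 and 6337 in knockouts and 7376, 8105 and 8314 in controls (log2 change -0.38, SE 0.13, limma adjusted p = 0.202, 0.0517 to 0.477 over the alternatives). The bin from 60980001, between Ctla4 and Icos, held 4813, 4039 and 4228 bases in knockouts and 5643, 5520 and 5681 in controls (log2 change -0.39, SE 0.138, limma adjusted p = 0.219, 0.108 to 0.507). These changes were small beside the outer bins and closely spaced within each group.

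At the Icos start, the bin from 61010001 held 3807, 4410 and 3068 bases in knockouts and 4907, 5158 and 4417 in controls (log2 change -0.39, SE 0.11, limma adjusted p = 0.123, 0.118 to 0.537 over the alternatives). The next bin, from 61020001 and inside Icos, held 358, 719 and 0 bases in knockouts and 872, 1620 and 1778 in controls (log2 change -2.15, SE 0.745, limma adjusted p = 0.204, 0.0465 to 0.478 over the alternatives). The size of that change depends on the pseudocount because knockout 3 had no covered base, and it lay between -3.33 and -0.87 over the alternatives. With only the stronger 50% of the peaks of each list it was the one bin called lower of 15 tested in the window, where 3.32% of 13241 bins were called lower over the genome.

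**Figure D5:**
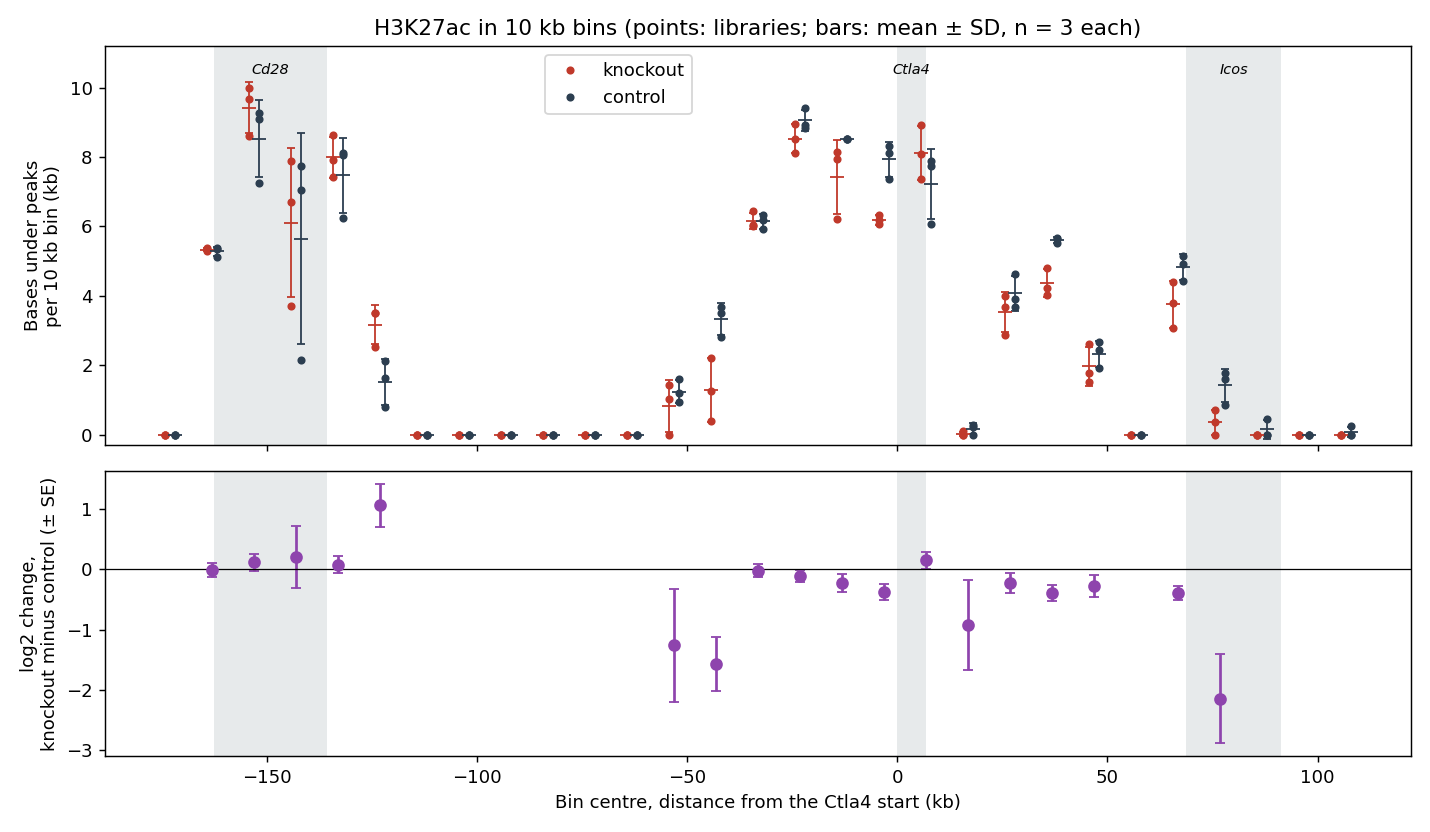
H3K27ac in 10 kb bins by distance from the start of Ctla4 in kb. The upper panel gives kb under peaks per bin, with knockouts left of controls, points for libraries and bars for the mean and SD of 3, and the lower panel gives the limma log2 change, knockout minus control, with its SE for the 18 bins tested. Most changes after the gap lie at or below 0, from -0.02 to -2.15, and the bin past Cd28 stands at 1.07.

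H3K27me3 was nearly absent from the locus. None of the 3 genes carried a peak in any of the 4 libraries. So little of the mark was common over the genome. Of windows of the same length, 36.7% and 48% held more H3K27me3 bases in knockouts 1 and 2, and 24.5% and 48.1% did in controls 1 and 2. The only 2 peaks lay after Icos, in 1 region at 61042162 to 61043371, and were found in knockouts 1 and 2, with 1210 and 753 bases, against 0 and 0 in controls 1 and 2. Their −log10 p was 16.1 and 40.8, at percentiles 59.1 and 91.8 of their lists. Of the 63341 H3K27me3 regions of the genome, 9.94% were found in both knockouts and absent from both controls. The window had 0 regions of controls only (0.0426% over the genome) and 0 shared by all 4 libraries (6.1%). The difference of 0.982 kb had a two-sided exact permutation p of 0.333, the smallest that 2 against 2 libraries allow. In limma the 1 bin tested had a log2 change of 2.36 (SE 1.28, adjusted p = 0.5, 0.284 to 1.0 over the alternatives) and was not called. That change was 0.29 to 5.49 over the alternatives, and 1.16 without control 2 and 1.56 without knockout 1. Over the genome, 0.257% of 21034 bins were called higher and 0.0428% lower. Its unadjusted limma p was 0.0648, where 7.36% of bins were higher and 3.15% lower at an unadjusted p under 0.05. Both knockouts were above both controls there, as in 39.5% of all tested bins, and 0.181% had both knockouts below. Outside the window, the nearest H3K27me3 peaks below it ended 686 and 685 kb away in knockouts and 1247 and 686 kb away in controls, and those above it began 56.3 and 53.3 kb away in knockouts and 172 and 56.6 kb away in controls.

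Relative to the genome background, the median background against which peaks were called in the window was lower in every knockout than in every control. Read back from the fold and −log10 p of H3K27ac peaks, this median was 6.92, 8.47 and 5.74 fragments in knockouts and 10.8, 7.12 and 7.56 in controls, with overlapping groups. As a ratio to the genome background it was 2.72, 2.78 and 2.39 in knockouts and 3.74, 3.41 and 3.58 in controls, without overlap. Over all peaks this ratio was 3.34, 2.96 and 3.09 in knockouts and 3.21, 2.79 and 2.93 in controls. The median summit pileup of the window was 34, 43 and 35.5 fragments in knockouts and 53, 42.5 and 42 in controls. Single peaks departed from the median. At the Ctla4 start peak the local background was 40.5, 41.3 and 33.1 fragments in knockouts and 64.7, 14.2 and 13.8 in controls. Other windows of the genome were not examined for such a separation. The part of the background in the differences above was not tested.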

How the data were processed

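Peaks of H3K27ac (3 knockout and 3 control libraries) and H3K27me3 (2 and 2) were analysed as deposited, 1 list per library; the 4 IgG samples were not analysed here. Per the submitters' processing notes, the tools were Bowtie2 2.2.4, deepTools 3.5.1, MACS2 (no version), ChIPseeker 1.30.3 and HOMER 4.11, with build mm39. Settings, the background library and the treatment of duplicates are not given in the sources used here. The score that the authors deposited is, for nearly all peaks, the −log10 p multiplied by 10 and cut to a whole number. The deposited fold enrichment is a ratio of a peak over its local background. Each p and q value is deposited as its −log10. All are the authors' own values of a peak, used only within a list to describe, rank or filter peaks. They also served to read back summit pileup and background under a Poisson model. This gave whole fragments for 98.7% to 99.9% of H3K27ac peaks, within 0.005 of −log10 p. For H3K27me3 the share was 100% in knockout 1, but 1.62% in knockout 2 and 7.67% and 6.35% in controls 1 and 2. The H3K27me3 lists were therefore not alike in their values, and the reason was not tested.

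Peaks were given whole to a gene or stretch by midpoint, and bases under peaks compared by exact permutation tests. Regions are merged peaks of a mark, overlapping by 1 bp or more. For 10 kb bins of the whole genome, log2(bases + 100) was centred on bins covered in every library and tested by limma (version 3.58.1, R 4.3.3; variance trend and robust fit on), after a check on simulated data. Bins needed a peak in 3 H3K27ac or 2 H3K27me3 libraries. Named regions are the strongest of each gene and stretch by mean −log10 p, those of 1 genotype only and called bins; others are said to be chosen after their values were seen, as were 60812915, 60819602, 60824962, 60911649, 60916327 and 60935670, the weak peaks in Icos and the measures of occupancy, summit distance and background. Members and lists were chosen with earlier results of these data known. Planned readings of other costimulatory genes, cell type markers and genes most like the members need start sites in mm39 and were not made. Python 3.11.15 was used. Alternatives are given in the closing section.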

Additional observations from a re-analysis of the deposited data

How the results depend on the processing

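Differences in bases under H3K27ac peaks (knockout minus control, in kb) kept their sign under every alternative run for the window, both stretches between genes and Icos. Signs turned for Cd28, 1.73 and -1.16 without control 1, and for Ctla4, -0.455 but 0.464 when divided at the borders, 0.736 without knockout 1 and 0.771 without control 3. Leaving out each library in turn gave -10.5 to -2.43 for the window, -1.16 to 3.57 for Cd28, -4.45 to -2.56 between Cd28 and Ctla4, -2.02 to 0.771 for Ctla4, -2.52 to -1.38 between Ctla4 and Icos, and -2.44 to -1.47 for Icos. Called bins were 0 lower and 0 higher, except 1 lower with the stronger 50% of each list (15 bins of the window tested; 3.32% of 13241 bins over the genome). H3K27ac regions of controls only (1 of 34) became 2 of 34 where 50% of a region had to be covered (2.63% over the genome), 0 of 24 with the stronger 50% of each list (2.53%), 2 of 27 with lists of equal length (1.68%), and 1 to 3 of 33 to 37 without 1 library (2.9% to 5.5%). Regions of knockouts only (0) became 1 under each of the first 3 (1.2%, 0.7% and 1.57% over the genome), and 0 to 1 without 1 library (1.09% to 2%). The H3K27me3 region of knockouts only became 0 with lists of equal length, a setting that keeps the 7512 strongest peaks of each list and left no bin of the window to test. The cause of these moves was not tested. To see whether same-numbered libraries vary together, deviations from the mean of each genotype were correlated over the tested bins. Same-numbered knockouts and controls gave 0.246, 0.053 and 0.010 for H3K27ac, where differently numbered pairs lay between -0.213 and 0.177. For H3K27me3 they gave 0.003 and 0.003. With 2 libraries a group the deviations mirror each other, so H3K27me3 pairs could differ only in sign. The numbers were not taken to pair samples. With the replicate number as a block the differences were the same (-6.02 for the window, -3.48 between Cd28 and Ctla4, -1.81 between Ctla4 and Icos, -1.92 for Icos, exact sign-flip permutation p = 0.25, the smallest possible), with 0 bins lower and 0 higher and a lowest adjusted p of 0.0702. The same sign-flip p was 0.5 for Cd28 (1.73) and higher still for Ctla4 (-0.455). With 3 or 2 libraries a group, permutation tests could call nothing here, and peak length does not measure signal strength.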

Other observations

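H3K27ac next to the window was noted after its values were seen. Below the window the nearest peak ended 16.8, 16.8 and 16.9 kb away in knockouts 1 to 3 and 78, 77.9 and 77.7 kb away in controls 1 to 3. Above the window the nearest peak began 25.1, 25 and 25.1 kb away in knockouts and 3.52, 3.62 and 5.96 kb away in controls. These distances rest on few regions. The one below, at 60752370 to 60753237, had a peak in all 3 knockouts and in 0 controls, as did 0.809% of regions over the genome. Those above, at 61065273 to 61067081 and 61067764 to 61070831, had a peak in all 3 controls and in 0 knockouts, as did 2.66% of regions, and one at 61063520 to 61064426 had it in 2 controls. No test was made.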
